A study of Rattus norvegicus with 45 samples.

Results

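Risperidone and haloperidol, both antipsychotic drugs, were compared directly with each other in the frontal cortex of rats. The comparison rests on 10 of the 45 arrays of the series, 5 from rats given risperidone and 5 from rats given haloperidol, chosen by sample title and labelled region. All rats were male Sprague-Dawley, an outbred stock, 9 to 11 weeks old, and 1 array was made per rat and region. Haloperidol was given at 0.25 mg/kg/d and risperidone at 5 mg/kg/d for 21 days through minipumps under the skin, and 5 further rats received only the vehicle, acetic acid in water. The doses differ and each drug had 1 dose, so drug and dose cannot be told apart. Animal numbers run in blocks by drug, so an order of handling cannot be told apart from the drug either. Arrays have no read depth, and their number limits the precision of each value. Each of the 10 arrays is a separate rat. The p-values come from a fit that also holds the hippocampus and striatum arrays of these rats. The spread they measure is therefore pooled over the 3 regions and is not that of the frontal cortex arrays alone.

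Haloperidol acts mainly by blocking dopamine receptors of the D2 type. Risperidone blocks these and also serotonin, adrenergic and histamine receptors, with the serotonin receptor Htr2a among its strongest targets. In the cortex, glutamatergic pyramidal neurons and GABAergic interneurons receive dopamine and serotonin input. Their recent activity is often read from immediate early genes such as Fos and Egr1, which are induced rapidly through the transcription factors CREB and serum response factor.

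The labelled region was checked with marker genes. Of 14 tested markers of cortical pyramidal neurons, 10 were higher in every cortex array than in every striatum array, and all 21 tested markers of striatal projection neurons were lower. The markers separated cortex less clearly from hippocampus. Of the 14 pyramidal markers, 2 were higher in every cortex array than in every hippocampus array, and the median of cortex minus hippocampus was -0.45. Of 10 tested markers of hippocampal neurons, 5 were lower in every cortex array. Markers of the olfactory bulb and of neuroblasts set 3 cortex arrays apart. Their mean level was 7.88, 9.60, 8.22, 7.86 and 9.24 on the log2 scale in risperidone rats 1 to 5, and 7.94, 7.90, 7.73, 7.75 and 8.68 in haloperidol rats 1 to 5. Risperidone rats 2 and 5 and haloperidol rat 5 were the highest, and the vehicle rats lay from 7.69 to 7.86. Cdhr1, a cadherin-related protein of olfactory bulb neurons, read 11.23 and 10.91 in risperidone rats 2 and 5, 9.72 in haloperidol rat 5 and at most 8.02 in the other drug-treated rats. All 13 tested genes of this list lay higher after risperidone, with a median of 0.54, and the median was -0.02 without risperidone rats 2 and 5. Striatal markers were highest in risperidone rat 1, at 8.45 against 7.58 to 7.86 in the other drug-treated rats. The part of neighboring tissue in the other results was not tested. Where the difference of a gene of the lists below moved by more than 1.5 times without risperidone rats 2 and 5, that value is given too. In bulk tissue, fewer cells of a type and less RNA per cell cannot be told apart.

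**Figure D1:**
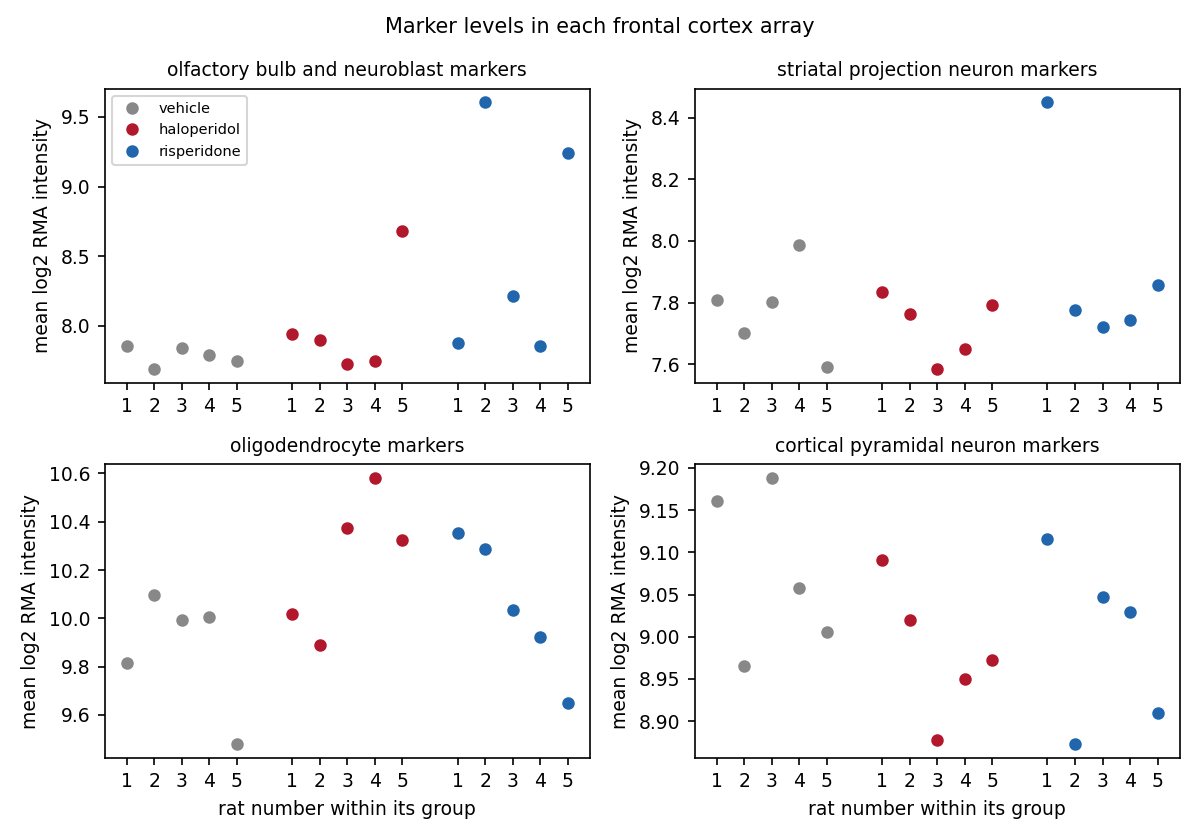
Mean log2 RMA intensity of marker lists in each frontal cortex array of the vehicle, haloperidol and risperidone groups. Risperidone rats 2 and 5 and haloperidol rat 5 stand high in olfactory bulb markers, at 9.60, 9.24 and 8.68, and risperidone rat 1 stands high in striatal markers, at 8.45.

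No probe set differed between risperidone and haloperidol in frontal cortex by 1.2-fold or more with an adjusted p under 0.05 (limma, 0 of 18609 probe sets, 0% called, smallest adjusted p 0.0976). With the 10 frontal cortex arrays alone, limma also called 0 (smallest adjusted p 0.289). At an unadjusted p under 0.05, 2438 probe sets (13.1%) lay higher and 681 (3.66%) lay lower after risperidone. The 5 risperidone rats did not overlap with the 5 haloperidol rats at 426 probe sets with risperidone higher (2.29%) and 132 with risperidone lower (0.709%). With 1 probe set per gene, 1726 of 10248 genes (16.8%) lay higher and 295 (2.88%) lay lower at an unadjusted p under 0.05, and the median difference over all genes was 0.06 on the log2 scale. The excess of higher values depended on the scaling. The 75th percentile of log2 intensity was 8.16 to 8.24 on the haloperidol arrays and 8.23 to 8.28 on the risperidone arrays. When the 30 arrays of the drug-treated rats were quantile normalized again, 1235 probe sets lay higher and 1141 lower at an unadjusted p under 0.05 (52.0% higher, against 78.2% as deposited), and 0 were called.

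The number of called probe sets depended on which arrays entered the estimate of the spread. With the vehicle arrays added (45 arrays), 143 probe sets passed (0.768%), 101 higher (0.543%) and 42 lower (0.226%) after risperidone, with a median size of 1.26-fold. Of these, 62 did not overlap between the groups, 44 with risperidone higher and 18 with risperidone lower (2.29% and 0.709% of all probe sets). Overlap was counted on the same arrays that gave the difference, so it is not separate support. Without the vehicle arrays the 143 had an adjusted p from 0.0976 to 0.134. After quantile normalization within each region the 45 arrays gave 30 calls, 12 higher and 18 lower, of which 27 were among the 143. Without the 3 rats highest in olfactory bulb markers they gave 8 calls, 4 of them among the 143. An adjusted p with the vehicle arrays is followed below by its value with those arrays renormalized in this way and with those arrays but without the 3 rats. The 30 arrays gave 13 calls without haloperidol rat 1 and 0 to 2 without any other single rat. Differences below are risperidone minus haloperidol on the log2 scale with their standard error, and adjusted p values come from limma without the vehicle arrays unless stated. None of the frontal cortex differences passed the threshold in that fit.

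The receptors that the drugs bind did not differ past the threshold. Of 31 receptor genes for dopamine, serotonin, adrenaline and histamine, 30 were on the array and 15 passed the filter on low values. At an unadjusted p under 0.05, 1 of the 15 lay higher and 0 lay lower (16.8% and 2.88% of all genes), and their median difference was 0.02. Htr2a, the serotonin receptor that risperidone blocks, read 8.34, 8.12, 8.53, 8.20 and 8.28 in risperidone rats 1 to 5 and 8.49, 8.57, 8.13, 8.54 and 8.25 in haloperidol rats 1 to 5. The groups overlapped, and the difference of -0.10 ± 0.15 had a 95% interval of -0.42 to 0.22 (adjusted p = 0.781). It was -0.04 without risperidone rats 2 and 5. Htr7, a serotonin receptor that raises cAMP, read 6.97, 7.0, 7.15, 6.73 and 6.72 after risperidone and 6.53, 6.84, 6.30, 6.20 and 6.76 after haloperidol. It was the 1 receptor of the 15 at an unadjusted p under 0.05, with a difference of 0.39 ± 0.15 (95% interval 0.08 to 0.70, adjusted p = 0.199) and groups that overlapped.

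Both dopamine receptors named here were highest in risperidone rat 1. Drd2, the shared target, read 6.91, 5.29, 5.49, 5.34 and 5.39 after risperidone and 5.44, 5.41, 5.08, 5.36 and 5.39 after haloperidol. The filter on low values had its cutoff at 5.88, applied to the mean over the arrays of all regions. Apart from risperidone rat 1, all these cortex values of Drd2 lay below that cutoff. Whether Drd2 was detected in cortex was not tested. Risperidone rat 1, whose striatal markers were the highest, stood alone, and the difference of 0.35 ± 0.25 (95% interval -0.18 to 0.87, adjusted p = 0.512) was 0.04 without that rat and 0.58 without risperidone rats 2 and 5. Drd1, which raises cAMP, read 7.85, 7.25, 6.56, 6.65 and 6.84 after risperidone and 6.89, 6.78, 5.99, 6.57 and 6.55 after haloperidol, with groups that overlapped. Its difference of 0.47 ± 0.26 (95% interval -0.07 to 1.02, adjusted p = 0.363) was 0.27 without risperidone rat 1. Htr2c differed by 0.33 ± 0.25 (95% interval -0.19 to 0.85, adjusted p = 0.527), and by 0.05 without risperidone rats 2 and 5. The adrenergic receptors Adra1b and Adra2a differed by -0.07 ± 0.25 and 0.18 ± 0.15, with 95% intervals of -0.58 to 0.43 and -0.12 to 0.48, and by 0.02 and 0.08 without risperidone rats 2 and 5. The histamine receptor Hrh1 differed by 0.11 ± 0.11 (95% interval -0.11 to 0.33) and by 0.22 without those rats, and Adra1a did not pass the filter.

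**Figure D2:**
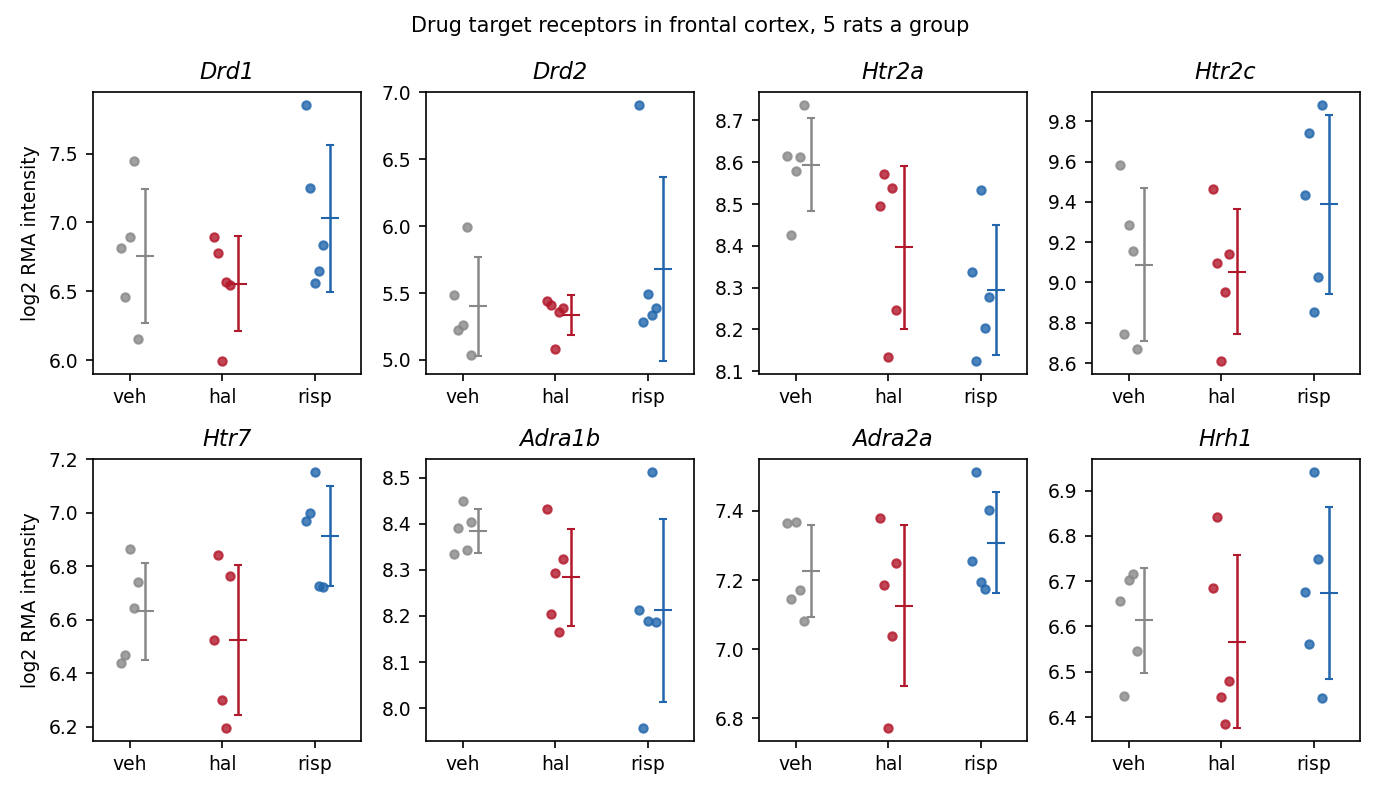
Log2 RMA intensity of drug target receptors in frontal cortex, with 1 point per rat and the mean and SD of 5 rats per group beside the points. The risperidone and haloperidol groups overlap in each panel, and the high Drd1 and Drd2 points after risperidone, 7.85 and 6.91, are both rat 1.

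Activity-regulated genes held some of the largest differences with risperidone below haloperidol. Of 44 genes of this list, 41 were on the array and 29 passed the filter, and 6 lay lower and 1 lay higher at an unadjusted p under 0.05 (2.88% and 16.8% of all genes). The 6 were the transcription factors Egr1, Egr2, Egr4, Fos and Nr4a3 and the prostaglandin synthase Ptgs2, and the 1 that lay higher was Tiparp, a poly-ADP-ribose polymerase (0.22 ± 0.07). The list median was -0.01, against 0.06 for all genes. Without risperidone rats 2 and 5 it was 0.02, with 4 genes lower at that p (2.29% of all genes). The mean level of the 29 genes was 8.69, 8.51, 8.39, 8.36 and 8.40 after risperidone and 8.73, 8.65, 8.52, 8.47 and 8.43 after haloperidol, and the vehicle rats lay above both groups, from 8.78 to 9.15.

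Egr2, a zinc finger transcription factor induced by synaptic activity, read 6.77, 6.94, 5.82, 5.95 and 6.04 in risperidone rats 1 to 5 and 7.85, 8.0, 7.43, 7.11 and 6.39 in haloperidol rats 1 to 5. Haloperidol rat 5 alone reached into the range of the risperidone rats, and the vehicle rats lay above both groups, from 8.12 to 8.80. The difference was -1.05 ± 0.30, or 2.08-fold higher after haloperidol (95% interval -1.67 to -0.44, adjusted p = 0.114, and 0.0432 with the vehicle arrays, 0.0755 with them renormalized and 0.0852 without the 3 rats). It ran from -1.30 to -0.89 when each rat was left out and was -1.18 without risperidone rats 2 and 5.

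Fos, which pairs with Jun proteins to form AP-1, read 7.86, 7.95, 6.94, 6.43 and 6.91 after risperidone and 8.38, 8.38, 7.83, 7.44 and 7.51 after haloperidol. Risperidone rats 1 and 2 overlapped with the haloperidol rats, and the difference was -0.69 ± 0.28 (adjusted p = 0.209). Egr1, a zinc finger factor of the same family as Egr2, read 11.35, 10.98, 10.73, 10.85 and 11.12 after risperidone and 11.62, 11.36, 11.60, 11.32 and 11.20 after haloperidol. Risperidone rat 1 lay above haloperidol rats 4 and 5, and the other risperidone rats lay below all haloperidol rats. The difference was -0.41 ± 0.10 (95% interval -0.63 to -0.20, adjusted p = 0.113, and 0.0420 with the vehicle arrays, 0.0691 with them renormalized and 0.123 without the 3 rats). Nr4a3, an orphan nuclear receptor, differed by -0.42 ± 0.15 and -0.33 ± 0.11 on its 2 probe sets. Ptgs2 differed by -0.42 ± 0.20 and Egr4 by -0.25 ± 0.11, with groups that overlapped.

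Homer1 encodes a scaffold of metabotropic glutamate receptors, and its probe sets differed in size. On the probe set with the largest difference it read 8.10, 7.18, 7.16, 7.64 and 7.50 after risperidone and 8.30, 8.35, 8.05, 7.99 and 7.85 after haloperidol, with vehicle from 8.71 to 9.42. Risperidone rat 1 alone reached into the haloperidol range. This probe set and a second one differed by -0.59 ± 0.18 and -0.54 ± 0.18 (adjusted p = 0.121 and 0.138), while the other 3 probe sets differed by -0.20, -0.18 and -0.15. Which transcript each probe set reads was not tested.

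Arc and Nr4a1 had similar means after both drugs. Arc, which acts in the removal of AMPA receptors from synapses, read 8.16, 7.25, 7.09, 7.08 and 7.19 after risperidone and 7.59, 7.22, 7.32, 6.80 and 7.14 after haloperidol, with vehicle from 8.08 to 9.38. Nr4a1, an orphan nuclear receptor, read 8.68, 8.03, 7.96, 7.87 and 8.08 after risperidone and 8.35, 8.10, 8.07, 7.94 and 7.98 after haloperidol, with vehicle from 8.80 to 9.82. In both genes risperidone rat 1 was the highest of the drug-treated rats. The differences were 0.14 ± 0.15 (95% interval -0.16 to 0.44) and 0.03 ± 0.14 (95% interval -0.25 to 0.32), and without that rat they were -0.06 and -0.10. They were 0.23 and 0.08 without risperidone rats 2 and 5.

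**Figure D3:**
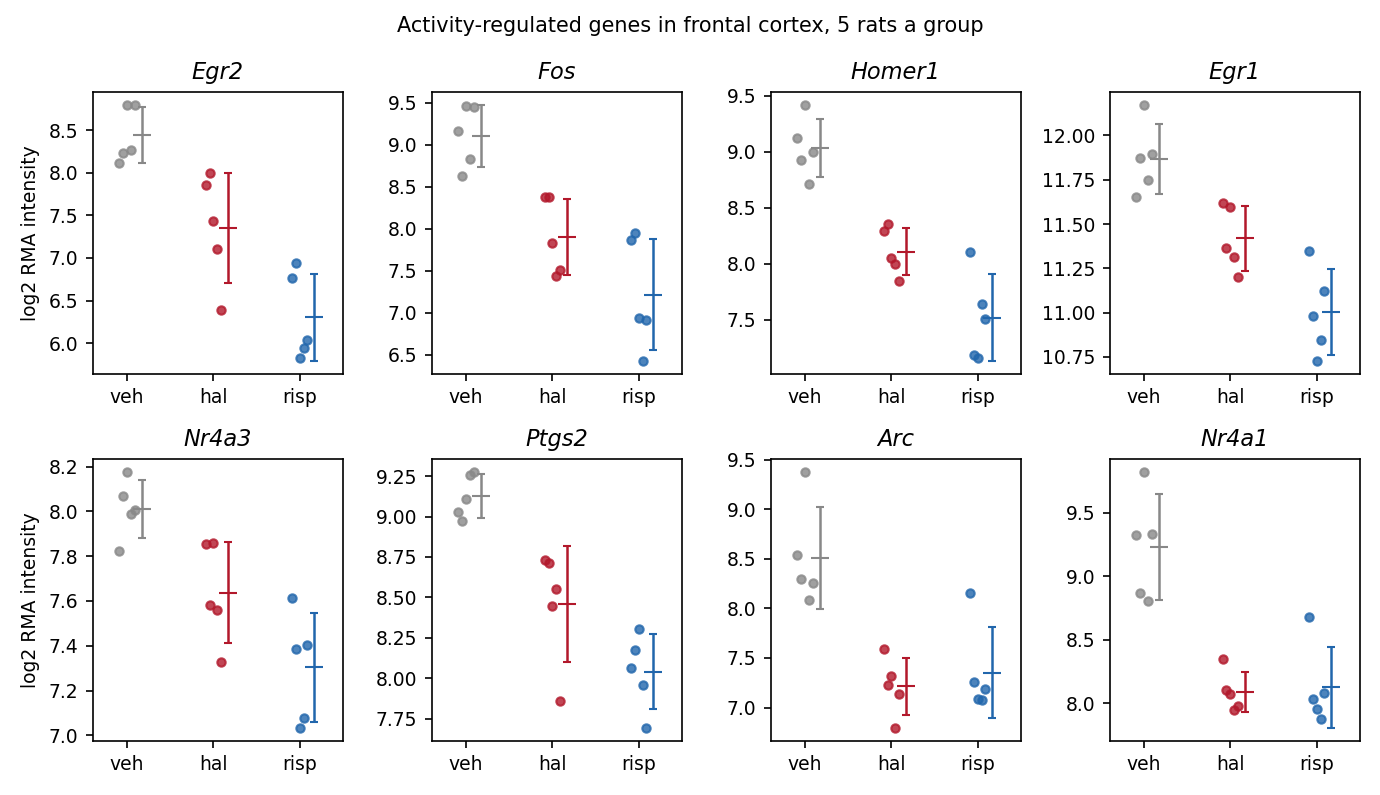
Log2 RMA intensity of activity-regulated genes in frontal cortex, with 1 point per rat and the mean and SD of 5 rats per group beside the points. The mean of Egr2 is 6.30 after risperidone and 7.36 after haloperidol, whereas the means of Arc are 7.35 and 7.21.

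The promoters of 4 of these genes are shown because the factors known to induce such genes bind short motifs there. They are Egr2, Egr4 and Homer1, whose means lay lower after risperidone, and Nr4a1, whose means were similar. RefSeq promoters (build GRCr8) were matched for 22 of the 29 tested genes. The 250 bases before the start of transcription were searched on both strands for the cAMP response element TGACGTCA, for its half-site TGACG, which the full element contains, and for the CArG box, which serum response factor binds. The half-site was in 13 of the 22 promoters and in 18.8% of all 27457 promoters of the same length. The full element was in 5 of the 22 (1.68% of all) and the CArG box in 3 (1.49% of all). Egr2 lies at chr20:21054442-21054691 on the minus strand, Egr4 at chr4:119607818-119608067 on the minus strand, Homer1 at chr2:26278762-26279011 on the plus strand and Nr4a1 at chr7:134259888-134260137 on the plus strand. Capitals mark the half-sites and the CArG box.
Egr2: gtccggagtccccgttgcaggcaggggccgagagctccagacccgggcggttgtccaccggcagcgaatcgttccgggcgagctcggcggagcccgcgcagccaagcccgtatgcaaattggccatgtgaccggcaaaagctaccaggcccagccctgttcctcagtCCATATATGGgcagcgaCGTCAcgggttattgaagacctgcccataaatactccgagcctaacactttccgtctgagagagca
Egr4: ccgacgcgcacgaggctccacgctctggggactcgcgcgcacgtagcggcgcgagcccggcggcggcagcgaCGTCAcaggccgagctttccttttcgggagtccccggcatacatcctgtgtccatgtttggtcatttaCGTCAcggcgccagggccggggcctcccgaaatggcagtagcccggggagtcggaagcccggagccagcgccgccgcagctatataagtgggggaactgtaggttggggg
Homer1: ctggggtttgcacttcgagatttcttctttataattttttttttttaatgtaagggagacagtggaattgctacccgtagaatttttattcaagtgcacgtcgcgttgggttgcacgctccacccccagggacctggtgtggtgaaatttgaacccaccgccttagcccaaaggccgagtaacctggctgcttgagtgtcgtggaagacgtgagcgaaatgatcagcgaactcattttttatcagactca
Nr4a1: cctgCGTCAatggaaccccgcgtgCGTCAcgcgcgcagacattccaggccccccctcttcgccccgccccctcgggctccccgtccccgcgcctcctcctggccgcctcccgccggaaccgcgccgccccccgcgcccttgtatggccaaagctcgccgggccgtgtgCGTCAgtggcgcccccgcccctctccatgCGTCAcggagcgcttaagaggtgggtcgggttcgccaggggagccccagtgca
Egr2 carries a CArG box 83 bases and a half-site 66 bases before the start. Egr4 carries half-sites 178 and 110 bases before the start, and the window of Homer1 holds none of these letters. Nr4a1 carries 4 half-sites, at 246, 226, 82 and 53 bases. A match describes letters in a window and not a bound site.

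Feedback regulators of the ERK pathway, which acts upstream of many of these genes, had a list median of -0.05. Of 10 tested, 2 lay lower and 0 lay higher at an unadjusted p under 0.05, against 2.88% and 16.8% of all genes. Etv5, an ETS transcription factor, read 8.23, 7.94, 7.91, 8.18 and 8.02 after risperidone and 8.66, 8.35, 8.34, 8.30 and 8.44 after haloperidol. The groups did not overlap (0.546% of genes with risperidone lower), and the difference was -0.36 ± 0.11 (adjusted p = 0.121). Spry4, an inhibitor of growth factor signaling, differed by -0.23 ± 0.07 (adjusted p = 0.138) and the ERK phosphatase Dusp6 by -0.22 ± 0.13, with groups that overlapped.

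Among circadian clock genes, 3 of 18 tested lay higher and 0 lay lower at an unadjusted p under 0.05, a share near that of all genes (16.8% higher). The list median was 0.09, and 0.04 after quantile normalization within each region. Dbp, a clock output factor, read 8.91, 8.74, 9.15, 8.90 and 8.93 after risperidone and 8.47, 8.60, 8.72, 8.47 and 8.57 after haloperidol. The groups did not overlap (2.88% of genes with risperidone higher), although risperidone rat 2 and haloperidol rat 3 were close, and the difference was 0.36 ± 0.10 (adjusted p = 0.113, and 0.0383 with the vehicle arrays, 0.0956 with them renormalized and 0.119 without the 3 rats). The nuclear receptors Nr1d1 and Nr1d2, which repress transcription of other clock genes, differed by 0.26 ± 0.07 and 0.18 ± 0.06 (adjusted p = 0.114 and 0.135). The period genes Per1 and Per2 differed by 0.03 and -0.08, and the activator Clock by -0.05. No source used here gives the time of day of tissue collection, and its part was not tested.

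In cAMP signaling, 2 of 40 tested genes lay higher and 1 lay lower at an unadjusted p under 0.05 (16.8% and 2.88% of all genes), with a median of 0.04. Rapgef4, a cAMP-activated exchange factor for Rap, read 10.81, 10.82, 11.08, 11.06 and 10.50 after risperidone and 11.06, 11.43, 11.71, 11.57 and 10.96 after haloperidol. The groups overlapped through haloperidol rats 1 and 5, and the difference was -0.49 ± 0.13 (adjusted p = 0.113, and 0.0423 with the vehicle arrays, 0.0663 with them renormalized and 0.139 without the 3 rats). The related Rapgef3 differed by 0.14 ± 0.07. Adcy8, a calcium-stimulated adenylyl cyclase, differed by 0.53 ± 0.22, and by 0.14 without risperidone rats 2 and 5.

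Glutamate and GABA receptor subunits had few members at an unadjusted p under 0.05 on the deposited scale. Of all genes, 16.8% lay higher and 2.88% lay lower at that p, and these shares apply to each list of this paragraph on that scale. Of 19 glutamate receptor subunits, 1 lay higher at an unadjusted p under 0.05, the metabotropic receptor Grm4 (0.35 ± 0.16, and 0.20 without risperidone rats 2 and 5), and the median was 0.03. After quantile normalization within each region 1 lay higher and 4 lay lower at that p (8.49% and 5.09% of all genes), and the median was -0.02. The 5 NMDA subunits ran from -0.11 to 0.10 and the 4 AMPA subunits from -0.16 to 0.08. None of 10 GABA receptor subunits had an unadjusted p under 0.05, and they ran from -0.07 to 0.16. Of 27 genes of vesicle release, 1 lay higher at that p, Rab3b, a small GTPase of synaptic vesicles (0.39 ± 0.13, and 0.18 without risperidone rats 2 and 5). Of 24 postsynaptic scaffolds and calcium kinases, 1 lay lower, the kinase Prkcb (-0.21 ± 0.08, and -0.14 without risperidone rats 2 and 5), and of 24 sodium and calcium channels 1 lay lower, the T-type channel Cacna1i (-0.23 ± 0.11).

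The median of the interneuron list and its count of higher genes fell without risperidone rats 2 and 5. The mean level of the list was 10.13 and 9.86 in these rats, the highest of their group. Haloperidol rat 5, at 9.79, was likewise the highest of the haloperidol rats. It lay just below risperidone rat 3, at 9.81, and vehicle rat 4 read 9.88. The part of neighboring tissue in this list was not tested. Of 14 tested genes, 4 lay higher and 0 lay lower at an unadjusted p under 0.05 (16.8% and 2.88% of all genes), with a median of 0.15. Without risperidone rats 2 and 5, 0 lay higher at that p (13.1% of all genes), with a median of 0.06. Gad1, which makes GABA, read 11.46, 12.63, 11.64, 11.41 and 12.33 after risperidone and 11.39, 11.43, 11.24, 11.40 and 11.95 after haloperidol. The 3 highest rats were those highest in olfactory bulb markers. Its difference of 0.41 ± 0.17 (adjusted p = 0.219) was 0.02 without risperidone rats 2 and 5. That of Slc32a1, the vesicular GABA transporter, went from 0.37 ± 0.12 (adjusted p = 0.144) to 0.16. The 11 tested subtype markers ran from -0.19 to 0.61, and 2 of them lay higher at an unadjusted p under 0.05 (16.8% of all genes). Among those with small differences, Sst, Vip and Pvalb differed by 0.01, 0.06 and -0.09, and by 0.06, 0.13 and 0.10 without those rats.

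Among 38 potassium channel genes, 3 lay higher and 2 lay lower at an unadjusted p under 0.05 (16.8% and 2.88% of all genes), and without risperidone rats 2 and 5 these were 0 and 1. Kcnj16, an inward rectifier, read 6.03, 7.60, 6.57, 6.09 and 7.22 after risperidone and 5.94, 5.68, 6.12, 5.47 and 6.05 after haloperidol. Risperidone rats 2 and 5 were again the highest, and the difference of 0.85 ± 0.26 (adjusted p = 0.122) was 0.38 without them. Kcna1, a delayed rectifier of axons, differed by -0.29 ± 0.09 (adjusted p = 0.128) and by -0.28 without them. Kcnq3, a subunit of the M-current channel, differed by -0.32 ± 0.13, and the voltage-gated Kcna4 and Kcna5 by 0.34 ± 0.15 and 0.41 ± 0.20, with groups that did not overlap in these 3 genes (2.88% of all genes with risperidone higher and 0.546% lower). Without risperidone rats 2 and 5 Kcna4 differed by 0.19.

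Subunits of the respiratory chain lay higher almost throughout. Of 67 tested, 66 lay higher (70.4% of all genes), 28 of them at an unadjusted p under 0.05 (16.8% of all genes), with a median of 0.09 against 0.06 for all genes. Complex I, which takes electrons from NADH, held 18 of the 28 among its 33 subunits and had a median of 0.12, and the median of complex V, the ATP synthase, was 0.05. Ndufb7, a complex I subunit, read 10.58, 10.69, 10.69, 10.67 and 10.50 after risperidone and 10.54, 10.47, 10.37, 10.35 and 10.40 after haloperidol. Risperidone rat 5 alone fell below a haloperidol rat, and the difference was 0.20 ± 0.05 (adjusted p = 0.113). Ndufv1, Ndufa9 and Ndufa13, of the same complex, differed by 0.15, 0.17 and 0.13. They were the only 3 of the 67 subunits whose groups did not overlap (2.88% of all genes with risperidone higher). After quantile normalization within each region the list median was 0.07 against 0.02 for all genes, with 22 of 67 higher and 0 lower at an unadjusted p under 0.05 (8.49% and 5.09% of all genes).

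Cytosolic ribosomal proteins, whose transcripts also move with RNA quality, lay higher as well. Of 39 tested, 35 lay higher (70.4% of all genes), 12 of them at an unadjusted p under 0.05 (16.8% of all genes), and the median was 0.11. Rpl18 read 11.55, 11.73, 11.77, 11.58 and 11.58 after risperidone and 11.54, 11.42, 11.46, 11.29 and 11.47 after haloperidol. The groups did not overlap by a narrow margin, and the difference was 0.21 ± 0.07 (adjusted p = 0.141). The mean level of the list ran from 12.05 to 12.32 after risperidone, from 12.01 to 12.15 after haloperidol and from 11.96 to 12.14 with vehicle. After quantile normalization within each region the median of the ribosomal list was 0.10 against 0.02 for all genes. At an unadjusted p under 0.05, 13 of 39 then lay higher and 0 lower (8.49% and 5.09% of all genes). The part of RNA quality in the respiratory chain values was not tested.

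**Figure D4:**
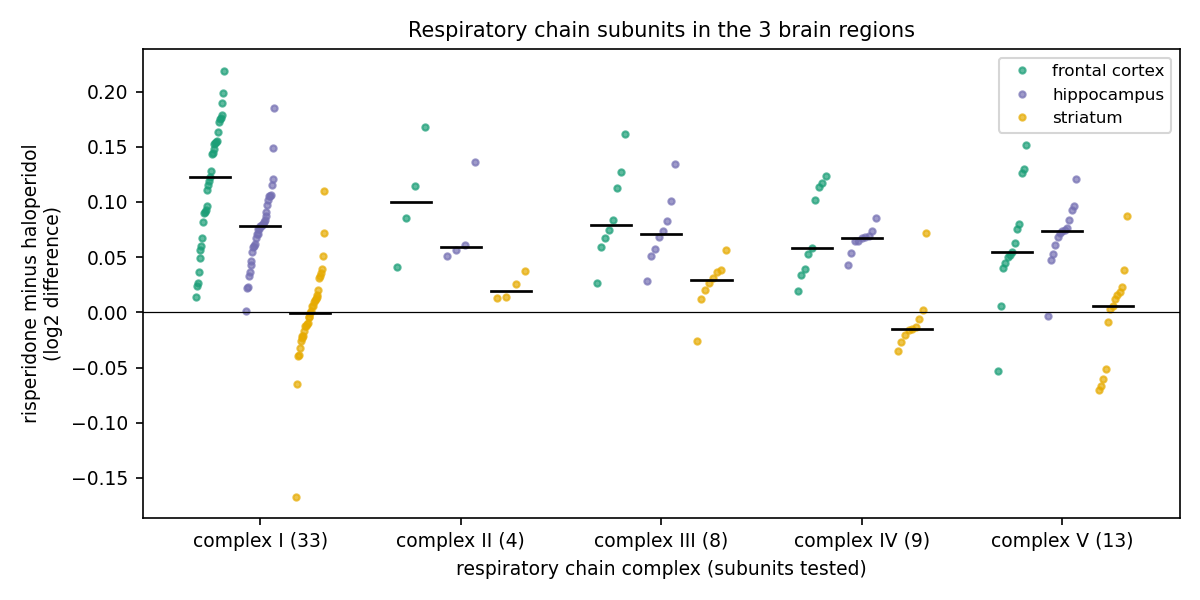
Log2 difference between risperidone and haloperidol for 67 respiratory chain subunits, by complex (33, 4, 8, 9 and 13 subunits) and brain region. In frontal cortex and in hippocampus 66 of 67 subunits lie above 0, and in striatum 37 do.

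In IGF-1 and PI3K signaling, 3 of 28 tested genes lay higher and 1 lay lower at an unadjusted p under 0.05 (16.8% and 2.88% of all genes). Pik3ip1, which inhibits PI3K, read 7.76, 8.04, 7.73, 7.66 and 7.72 after risperidone and 7.52, 7.33, 7.40, 7.65 and 7.49 after haloperidol. The groups did not overlap, and the difference was 0.30 ± 0.07 (adjusted p = 0.113, and 0.0319 with the vehicle arrays, 0.0796 with them renormalized and 0.163 without the 3 rats). Pik3r1, a regulatory subunit of PI3K, differed by -1.18 ± 0.32 (adjusted p = 0.113), and its values fell into separate levels. It read 6.88, 8.24, 6.61, 8.25 and 6.54 after risperidone and 8.48, 9.03, 8.11, 8.39 and 8.42 after haloperidol. The same rats were low in all 3 regions. Over the 45 arrays it lay from 6.13 to 6.92 in 5 rats, 3 with risperidone and 2 with vehicle, and from 7.76 to 9.27 in the other 10 rats. The drug difference was -1.07 in striatum and -1.0 in hippocampus.

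Genes of inflammation, which the study was about, had a median of 0.07 against 0.06 for all genes. Of 46 listed genes 21 passed the filter, and 3 lay higher and 1 lay lower at an unadjusted p under 0.05, against 16.8% and 2.88% of all genes. Hilpda, a lipid droplet protein induced by hypoxia, read 7.05, 7.34, 7.29, 6.86 and 6.80 after risperidone and 6.87, 6.63, 6.35, 6.56 and 6.93 after haloperidol. Risperidone rats 4 and 5 overlapped with the haloperidol rats, and the difference was 0.40 ± 0.11 (adjusted p = 0.113, and 0.0375 with the vehicle arrays, 0.0796 with them renormalized and 0.0885 without the 3 rats). The cytokine Il18 and the kinase Jak2 differed by 0.20 ± 0.10 and 0.19 ± 0.08, and the chemokine Cxcl12 by -0.22 ± 0.11. Jak2 differed by 0.10 without risperidone rats 2 and 5.

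The medians of glial and vessel markers differed in sign and moved with single rats. Of 14 oligodendrocyte markers, 13 lay lower (29.6% of all genes), 2 of them at an unadjusted p under 0.05 (2.88% of all genes), and the median was -0.18. Leaving out 1 rat moved this median to between -0.28 without haloperidol rat 2 and -0.08 without risperidone rat 5, and it was -0.10 without haloperidol rat 4. Without risperidone rats 2 and 5, 0 of 14 lay lower at that p (2.29% of all genes). Mobp, a myelin protein, read 12.86, 12.53, 12.61, 12.51 and 12.11 after risperidone and 12.70, 12.70, 13.26, 13.03 and 12.84 after haloperidol, with overlap (-0.38 ± 0.12, adjusted p = 0.135, and -0.25 without risperidone rats 2 and 5). Myelin basic protein, Mbp, differed by -0.13 ± 0.06. The mean of the list ran from 9.65 to 10.35 after risperidone, from 9.89 to 10.58 after haloperidol and from 9.48 to 10.10 with vehicle.

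Of 17 vessel markers, 1 lay lower at an unadjusted p under 0.05, against 2.88% of all genes. This was the smooth muscle actin Acta2 (-0.33 ± 0.10, adjusted p = 0.129), without overlap (0.546% of genes with risperidone lower). The median of the list was -0.14. It was -0.04 without risperidone rat 2, -0.06 without haloperidol rat 3 and -0.08 without risperidone rat 3. All 4 tested blood cell markers lay lower (29.6% of all genes), 1 of them at an unadjusted p under 0.05 (2.88% of all genes). Their median was -0.28, and the hemoglobin gene Hba-a3 differed by -0.46 ± 0.16 (adjusted p = 0.164). The medians of these markers were also below 0 in striatum (-0.25) and hippocampus (-0.53). Of 14 microglia markers, 11 lay higher, against 70.4% of all genes, and 2 did so at an unadjusted p under 0.05 (16.8% of all genes). Their median of 0.12 was 0.06 after quantile normalization within each region, and 0.06 without haloperidol rat 4 to 0.20 without risperidone rat 1. The complement gene C1qc and the adaptor Tyrobp differed by 0.28 ± 0.10 and 0.28 ± 0.13. Astrocyte markers had a median of 0.03 and pyramidal neuron markers one of 0.02. At an unadjusted p under 0.05, 3 of 15 and 0 of 14 members lay higher, against 16.8% of all genes. After quantile normalization within each region these counts were 1 and 0, against 8.49% of all genes.

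**Figure D5:**
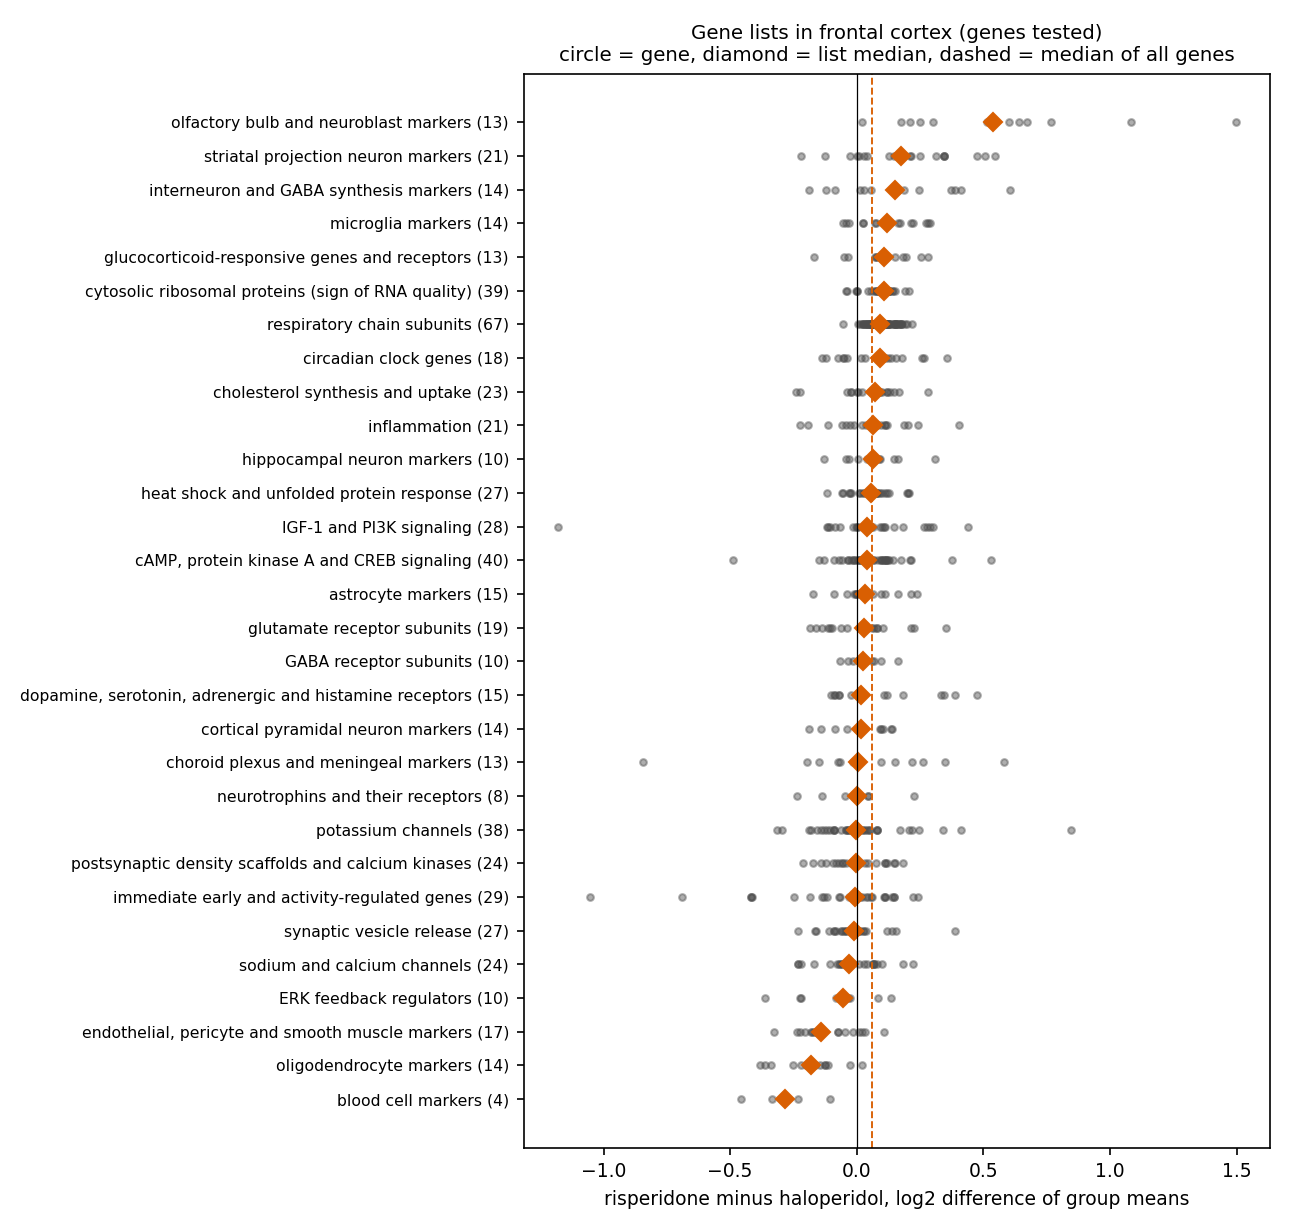
Log2 difference between risperidone and haloperidol in frontal cortex for the tested genes of 30 lists, with the median of each list. The median of all 10248 genes is 0.06, and the list medians run from -0.28 for blood cell markers to 0.54 for olfactory bulb markers.

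The genes with the largest differences among the 143 probe sets that passed with the vehicle arrays were named after their values had been seen. The 143 cover 111 named genes. Id2, which blocks basic helix-loop-helix factors, read 11.52, 11.05, 11.30, 11.13 and 11.56 after risperidone and 10.75, 10.74, 10.82, 10.69 and 10.80 after haloperidol. The groups were well apart, and the vehicle rats, from 11.05 to 11.41, lay with the risperidone rats. The difference was 0.55 ± 0.13, or 1.46-fold (adjusted p = 0.112, and 0.0305 with the vehicle arrays, 0.0509 with them renormalized and 0.0383 without the 3 rats), and 0.56 without risperidone rats 2 and 5. It was 0.49 in striatum and 0.46 in hippocampus. The related Id4 differed by 0.32, 0.34, 0.35 and 0.39 on its 4 probe sets.

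Pik3c3, the class III PI3K of autophagy, read 7.90, 8.25, 7.98, 8.07 and 8.16 after risperidone and 7.88, 7.58, 7.45, 7.36 and 7.60 after haloperidol. The groups did not overlap by a narrow margin, and the difference was 0.50 ± 0.12 (adjusted p = 0.112, and 0.0299 with the vehicle arrays, 0.0455 with them renormalized and 0.159 without the 3 rats). Cst6, a protease inhibitor, differed by 0.50 ± 0.14 and C10h17orf58 by 0.44 ± 0.10, both without overlap. Other large differences went with risperidone rats 2 and 5. The Ras-related Rerg differed by 0.85 ± 0.24, the kinase Map3k1 by 0.71 ± 0.22 and Bex4 by 0.55 ± 0.16, against 0.35, 0.17 and 0.21 without those rats.

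On the lower side, Crebl2, a bZIP protein related to CREB, read 7.64, 7.40, 7.56, 7.54 and 7.50 after risperidone and 7.69, 7.65, 8.25, 8.29 and 8.27 after haloperidol. The groups did not overlap, but haloperidol rats 1 and 2 lay close to the risperidone rats, as did the vehicle rats, from 7.65 to 7.76. The difference was -0.50 ± 0.13 (adjusted p = 0.113, and 0.0343 with the vehicle arrays, 0.0405 with them renormalized and 0.237 without the 3 rats). Btbd2 read 6.40 to 6.46 after risperidone and 6.59 to 7.06 after haloperidol (-0.39 ± 0.09). The calcium release channel Itpr2 differed by -0.40 ± 0.10, the desaturase Scd2 by -0.39 ± 0.10 and the calcium channel Trpv6 by -0.39 ± 0.09. RT1-Ba, an MHC class II gene of a multigene family, differed by -0.37 ± 0.10 on a probe set that can bind related transcripts. On another probe set of the gene, which also passed with the vehicle arrays, it differed by -0.36.

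The vehicle mean lay between the drug means at 109 of the 143 probe sets and at 6302 of all 18609. It was nearer to haloperidol at 103 of the 143 and nearer to risperidone at 40. Over all probe sets it was nearer to risperidone at 43.1%. The 143 were chosen for a large gap between the drug means, in a fit that held the vehicle arrays. A vehicle mean falls inside a wide gap more often, so the counts between the drug means cannot be compared with those of all probe sets. Whether the share nearer to haloperidol differs from that of all probe sets was not tested.

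In the other regions of the same rats, striatum gave 3 called probe sets (0.0161%), all lower after risperidone, and hippocampus 0 (limma, 0%, smallest adjusted p 0.579). At an unadjusted p under 0.05 there were 657 and 815 probe sets, against 3119 in frontal cortex. In the test of the difference itself, frontal cortex differed from striatum at 6 probe sets (0.0322%) and from hippocampus at 0 (0%, with 1071 at an unadjusted p under 0.05). The count of 6 ran from 0 to 12 when each rat was left out: it was 0 without haloperidol rat 2, haloperidol rat 3 or risperidone rat 1, 2 without haloperidol rat 1 or risperidone rat 2, 3 without haloperidol rat 5 or risperidone rat 3, 11 without haloperidol rat 4 and 12 without risperidone rat 5. With the vehicle arrays it was 11.

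The 6 genes were Slc4a7, Dnmt3a, Wdr33, Cwf19l2, Zrsr2-ps1 and Hip1. Slc4a7, a sodium bicarbonate cotransporter, differed by 0.32 ± 0.08 in cortex and -0.26 in striatum (a difference of 0.58, adjusted p = 0.0138). The DNA methyltransferase Dnmt3a differed by 0.36 ± 0.09 and -0.27 (a difference of 0.63, adjusted p = 0.0435). Wdr33, of the complex that cleaves and polyadenylates RNA, differed by 0.19 ± 0.12 and -0.70 (a difference of 0.89, adjusted p = 0.0138), and it passed in striatum itself (adjusted p = 0.0271). Hip1, an endocytic adaptor, ran the other way, at -0.25 ± 0.07 in cortex and 0.20 in striatum (adjusted p = 0.0470).

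Of the 29 activity-regulated genes, 7 lay higher after risperidone in striatum and 13 in hippocampus, against 14 in frontal cortex. Of all 10248 genes, 5244 lay higher in striatum, 6459 in hippocampus and 7213 in frontal cortex. Egr2 differed by -0.91 in striatum and -0.52 in hippocampus, Egr1 by -0.31 and -0.21, and Homer1, on the first probe set above, by -0.58 and -0.41. No member of the list passed the test of cortex against striatum, where 2 of 29 had an unadjusted p under 0.05 (1146 of all 10248 genes). The list median was -0.09 in striatum and -0.03 in hippocampus. The 3 genes were named for their cortex values. Respiratory chain subunits had a median of 0.07 in hippocampus and 0.01 in striatum. Of these 67, 12 differed between cortex and striatum at an unadjusted p under 0.05, against 1146 of all 10248 genes, and 0 were called. Olfactory bulb markers, at a median of 0.54 in cortex, had medians of 0.02 in striatum and 0.03 in hippocampus.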

How the data were processed

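RNA of frontal cortex, hippocampus and striatum of 15 rats was measured on 45 Affymetrix rat genome 230_2 arrays. The authors deposited linear intensities made with Robust Multi-array Average (RMA) in R 2.7.2, per the labels. RMA corrects background, normalizes between arrays and summarizes probes. No source used here says whether it was run on all arrays together. It can compress differences of weak probe sets, and scaling differences between groups move many genes together.

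Intensities were put on the log2 scale with no pseudocount. Of 31099 probe sets, 57 controls were left out, and the 18609 whose mean over the 45 arrays reached the 40th percentile entered the test. Among them, 14116 carry 1 gene in the platform annotation, 306 several and 4187 none. Symbols were updated through RefSeq for 14073. A mean per region and drug was fitted to the 30 arrays of the 10 drug-treated rats with limma 3.58.1 in R 4.3.3, taking arrays of a rat as correlated (random block, consensus correlation 0.229). The Benjamini-Hochberg adjustment was made per comparison, and a call needed a difference of 1.2-fold or more with an adjusted p under 0.05. The method was tested on simulated data.

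Lists count 1 probe set per gene, the one with the highest mean. The naming rule took the called genes with the largest differences (12 each way), called list members, the main drug target receptors, and otherwise the 2 members of each list with the smallest p. Other genes were named after their values were seen. The comparison, lists and rule were chosen with earlier results of these data known. Alternatives covered the arrays in the fit, filters, scaling, moderation, a marker covariate, a replicate block and each rat left out.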

Additional observations from a re-analysis of the deposited data

Results flagged for a closer look

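In 17 of 272 groups of 5 rats, 1 rat stood far from the others, and chance gives about 1 in 20. Risperidone rat 1 was the high one for Drd2 (6.91, others 5.29 to 5.49), Nr4a1 (8.68), Arc (8.16) and the list means of the monoamine receptors (7.40), cAMP signaling (8.98) and striatal markers (8.45). Haloperidol rat 5 was high for Gad1 (11.95, others 11.24 to 11.43), Pbx3 (10.19, others 7.92 to 8.24) and the olfactory bulb list (8.68), and low for Gfra2 (8.45) and Nr4a3 (7.76). Haloperidol rat 1 was high for Dlg3 (9.48) and low for Trpv6 (5.81). Haloperidol rat 3 was high for Slco1a4 (10.05) and low for Drd2 (5.08). Risperidone rat 2 was high for Pik3ip1 (8.04) and risperidone rat 3 low for Mettl7b (5.48).

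The drug difference was not the same in cortex and striatum for 6 genes, by limma's interaction test. As cortex minus striatum it was 0.58 for Slc4a7, -0.45 for Hip1, 0.63 for Dnmt3a, 0.89 for Wdr33, 0.43 for Zrsr2-ps1 and 0.61 for Cwf19l2, with adjusted p from 0.0138 to 0.0470.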

How the results depend on the processing

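The count of 0 called probe sets became 143 with all 45 arrays, 30 with those arrays quantile normalized within each region, and 8 with those arrays but without risperidone rats 2 and 5 and haloperidol rat 5. It became 1 with no filter, with a filter at the 60th percentile and with no moderation, and 2 without risperidone rats 2 and 5 or without those and haloperidol rat 5. It ran from 0 to 13 when each rat was left out. The cause of these moves was not tested. Rats with the same number in the 2 drug groups did not deviate together (correlations from -0.125 to 0.132, 1 of 5 over 0.1), so the numbers do not pair them. A fit with the replicate number as a block called 1 probe set, and 2 for cortex against striatum in place of 6. That count was 11 with 45 arrays and 0 to 12 when each rat was left out.

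The median of the inflammation list, 0.07, was 0.0277 with the filter at the 60th percentile, 0.0215 after quantile normalization of 30 arrays, 0.0220 and 0.0219 after it within each region (30 and 45 arrays), 0.0231 with the olfactory bulb marker mean as a covariate, 0.0187 without risperidone rats 2 and 5, and 0.0285 to 0.0807 when each rat was left out. The median of cholesterol genes, 0.07, was 0.0152 after quantile normalization of 30 arrays and 0.0150 within each region of 45. That of hippocampal markers, 0.06, was 0.0153, and 0.0151 and 0.0154 within each region. Nr4a1 turned to -0.0230 after quantile normalization, to -0.0221 and -0.0231 within regions, and ran from -0.103 to 0.0996 when each rat was left out, below 0 without haloperidol rat 4 or risperidone rat 1. Arc ran from -0.0614 to 0.234, below 0 without risperidone rat 1. With the covariate Bcl11b turned to -0.0967, Adra1b to 0.00341, Cdhr1 to -0.107 and Pcp4l1 to -0.0603. Without risperidone rats 2 and 5 these were -0.105, 0.0216, -0.0482 and -0.0459, and without those and haloperidol rat 5 Bcl11b was -0.0326 and Adra1b 0.0314, with 30 or 45 arrays. The settings within regions and without all 3 rats were chosen after seeing the data. Of the other values of single genes under alternatives, 2556 kept their direction and side of the threshold and 42 passed it. With 5 rats per group and weak probe sets near the filter, small differences may not be detectable.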

Other observations

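Glucocorticoid-responsive genes and receptors had a median difference of 0.11 over 13 tested genes, against 0.06 for all genes, and 3 lay higher at an unadjusted p under 0.05 (16.8% of all genes). The median was 0.05 after quantile normalization within each region. These were the metallothionein Mt2A (0.28 ± 0.10, adjusted p = 0.181 from limma, and 0.15 without risperidone rats 2 and 5), Ddit4, an inhibitor of mTOR (0.25 ± 0.10, adjusted p = 0.183), and Nfkbia, the inhibitor of NF-kappa B (0.18 ± 0.08). Among 27 heat shock and unfolded protein response genes, 4 lay higher and 0 lower at that p (16.8% and 2.88% of all genes), and 1 lay higher after quantile normalization within each region (8.49% of all genes). On the deposited scale they were the mitochondrial chaperonins Hspe1 (0.20 ± 0.06) and Hspd1 (0.09 ± 0.04), the stress factor Ddit3 (0.20 ± 0.09) and the disulfide isomerase Pdia4 (0.21 ± 0.10).

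Of 23 genes of cholesterol synthesis and uptake, 1 lay higher and 2 lay lower at an unadjusted p under 0.05 (16.8% and 2.88% of all genes). Insig2, which holds back the activation of sterol regulatory proteins, read 9.16, 9.56, 9.18, 9.16 and 9.33 after risperidone and 9.16, 8.98, 8.74, 9.06 and 9.06 after haloperidol, without overlap by a narrow margin (0.28 ± 0.08, adjusted p = 0.116 from limma, and 0.17 without risperidone rats 2 and 5). Sc5d, a late enzyme of the pathway, and Srebf2, its transcription factor, differed by -0.22 ± 0.09 and -0.24 ± 0.11, and Srebf2 by -0.11 without risperidone rats 2 and 5. Wfs1, a protein of the endoplasmic reticulum on the list of hippocampal neuron markers, differed by 0.31 ± 0.10 without overlap (adjusted p = 0.135). The neurotrophin Ntf3 differed by 0.23 ± 0.09, with groups that overlapped. None of 13 choroid plexus and meningeal markers had an unadjusted p under 0.05, and their median was 0.00.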
